A study of Homo sapiens with 30 samples.

Results

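At day 2, neural ectoderm of anterior character (aNE) was set against its posterior counterpart (pNE) by the chromatin regions that were open in only 1 of them. Open chromatin was measured by ATAC-seq, in which a transposase cuts accessible DNA and clusters of cuts are called as peaks. Peaks of all 10 groups of the study on chromosomes 1 to 22 were merged where they overlapped by at least 1 bp, which gave 476170 regions. Of these, 125817 held a peak in both aNE and pNE, 26433 held a peak in aNE and none in pNE (aNE-only), and 60608 held a peak in pNE and none in aNE (pNE-only). The 87041 exclusive regions are the subject of what follows.

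All cells were wild-type H1, an established human embryonic stem cell line, in 3 libraries per group of 50000 cells each. The hPSC group is the undifferentiated day 0 culture. DE is definitive ectoderm, made in 1 day with A8301 at 1 µM (an inhibitor of TGF-beta receptors), LDN193189 at 100 nM (an inhibitor of BMP receptors), C59 at 1 µM (an inhibitor of WNT secretion) and trametinib at 250 nM (a MEK inhibitor). Both day 2 groups were made from replated DE at 37500 cells per square cm, and both kept A8301 at 1 µM and LDN193189 at 100 nM, with the survival aid thiazovivin. The aNE medium also held C59 at 1 µM. The pNE medium held no C59 and added TTNPB at 50 nM (a retinoic acid receptor agonist), FGF2 at 20 ng/ml and XAV939 at 1 µM (a tankyrase inhibitor that dampens WNT signalling). The 6 day 4 groups are aNE and pNE taken on in telencephalon (T), midbrain (M) or hindbrain (H) medium, named aNE_T, aNE_M, aNE_H, pNE_T, pNE_M and pNE_H. Each group is represented by 1 deposited peak list without scores, so no value has a replicate error and no difference could be tested. Exact (Clopper-Pearson) intervals at 95% of the shares cover counting only, and the read depth behind the lists is unknown.

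In the embryo the neural plate is first anterior in character, and retinoic acid, FGF and WNT signals from caudal tissue impose posterior identities on it. Retinoic acid binds receptors that sit on DNA as dimers at repeated half-sites, and induces HOX genes and its own degrading CYP26 enzymes. FGF acts through ERK and ETS factors and induces its own feedback inhibitors, among them the Sprouty and DUSP proteins. The forebrain territory is marked by homeodomain factors such as OTX2 and SIX3, and is kept free of WNT signals.

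Few exclusive regions lay on promoters. Of 21156 promoter windows of 15101 genes (250 bases before to 50 after a RefSeq start site), 72.9% were open in aNE and 74.3% in pNE. An aNE-only peak overlapped 105 windows that hPSC or DE already had open and 30 that neither had open. For pNE-only peaks the counts were 227 and 135. Among the 188 genes of the 11 gene lists used here, 6 had such a window: LMX1B, GATA3, WNT8B and STRA6 on the aNE side, and NR2F2 and TUBB3 on the pNE side. At equal list size (described below) the NR2F2 and TUBB3 windows were exclusive as well. The aNE-side windows had to stay exclusive, since that cut keeps every aNE peak. Of the 6, 3 are shown. WNT8B and STRA6 are in the WNT and retinoic acid lists. NR2F2, of the hindbrain and posterior list, is shown as a gene that retinoids induce. The sequences are the 250 bases before the start site, 5′ to 3′ on the gene's strand, from RefSeq (GRCh38.p14). Capitals mark matches on either strand to AGGTCA (the retinoic acid receptor half-site), TAATCC (bound by OTX-type homeodomains) or CCGGAA (an ETS core).

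WNT8B: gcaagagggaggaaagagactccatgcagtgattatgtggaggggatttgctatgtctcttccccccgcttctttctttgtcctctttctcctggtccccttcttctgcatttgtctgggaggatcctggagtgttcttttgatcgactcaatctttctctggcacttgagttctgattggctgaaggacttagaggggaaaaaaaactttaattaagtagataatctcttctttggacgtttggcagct
STRA6: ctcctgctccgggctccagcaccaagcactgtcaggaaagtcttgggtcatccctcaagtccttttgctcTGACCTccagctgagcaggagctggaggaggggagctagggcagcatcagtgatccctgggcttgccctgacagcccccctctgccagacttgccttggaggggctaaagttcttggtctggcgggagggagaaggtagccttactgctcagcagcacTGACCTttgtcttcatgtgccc
NR2F2: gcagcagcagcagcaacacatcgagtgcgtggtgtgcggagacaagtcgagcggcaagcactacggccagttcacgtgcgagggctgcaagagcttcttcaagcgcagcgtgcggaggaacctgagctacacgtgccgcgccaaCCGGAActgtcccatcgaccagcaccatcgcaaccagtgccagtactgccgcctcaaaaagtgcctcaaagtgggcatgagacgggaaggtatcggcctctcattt

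The WNT8B window (chr10:100462759-100463008, plus strand) lies at the 5′ end of the gene for a WNT ligand of the embryonic forebrain. It holds none of the 3 motifs. Its aNE-only peak was 308 bp wide, and the window was open in DE, aNE, aNE_T and aNE_M and in none of the other 6 lists. STRA6 encodes the membrane receptor that takes up retinol. The STRA6 window (chr15:74212260-74212509, minus strand) holds 2 matches to AGGTCA, both read on the opposite strand. It was open in aNE alone of the 10 lists. Its peak of 134 bp (chr15:74212173-74212306) reaches only the end of the window nearest the start site. That peak covers the match nearer the start site and not the other. NR2F2 (COUP-TFII) is a nuclear receptor that retinoids induce. Its window (chr15:96332315-96332564, plus strand) holds 1 CCGGAA, and belongs to the inner of 2 start sites of the gene, 6.52 kb inside it. The pNE-only peak (chr15:96332188-96332384) ends before that CCGGAA. The window was open in pNE, in all 3 aNE-derived day 4 lists, in pNE_M and in pNE_H, and in none of hPSC, DE, aNE and pNE_T. The GATA3 window, open in DE and aNE only, lies 4.52 kb inside its gene. The LMX1B window was open in aNE alone, under a peak of 125 bp. TUBB3, a neuronal tubulin, had its window open in hPSC, pNE, aNE_M, aNE_H and pNE_M.

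Across all exclusive windows, AGGTCA was found in 17.1% of the aNE-only windows already open in hPSC or DE, 30% of the 30 that were not, and 17.2% and 17.0% of the corresponding pNE-only windows, against 11.9% of all windows. TAATCC matched 13.3%, 13.3%, 8.37% and 9.63% in the same order, against 5.48% of all windows. CCGGAA matched 9.52%, 6.67%, 6.61% and 13.3%, against 21.3% of all windows. The AGGTCA share was therefore above that of all windows on both sides, and the CCGGAA share below it on both. Motifs matched by letters are descriptions of whole windows, of which a peak can cover only a part, and not binding sites.

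The 2 sides differed in their history. A region is called already open here if hPSC or DE had a peak in it, and new if neither had. Of the aNE-only regions, 77.0% (95% interval 76.5 to 77.5) were already open, which is 20349 regions, and 6084 were new. Of the pNE-only regions, 46.3% (45.9 to 46.7) were already open, leaving 28042 already open and 32566 new. Regions shared by aNE and pNE were already open in 95.4% of cases. The stages contributed differently too. On the aNE side 38.9% of regions were open in both hPSC and DE, 32.0% in DE alone and 6.11% in hPSC alone. On the pNE side the shares were 21.3%, 14.8% and 10.2%. In these bulk samples a region open in fewer cells and a region less open in each cell cannot be told apart.

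The pNE list was longer than the aNE list, with 199638 peaks against 162041, and a longer list has more exclusive regions. All lists were therefore also cut to their widest 162041 peaks (equal list size), which leaves the aNE list itself whole and removes pNE peaks narrower than 167 bp. The exclusive regions were then 36959 in aNE and 37791 in pNE. The excess of pNE-only over aNE-only regions thus went from 2.29 pNE-only regions per aNE-only region to 1.02. Lists of the same length keep nearly the same number of peaks outside their shared part, so this near parity followed from the cut. The already open shares were lower on both sides, at 63.0% and 32.6%, in the same order. The cut also shortened the hPSC and DE lists, which define already open, from 205831 and 238994 peaks. With the pNE list alone cut, a setting chosen after seeing the data, the shares were 80.4% and 49.1%.

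Width separated the sides further. Exclusive peaks were narrow: the median widest peak of a region was 195 bp in already open and 162 bp in new aNE-only regions, 199 and 183 bp in the pNE-only ones, and 460 bp in shared regions. Among aNE-only regions with a peak of at least 300 bp, 90.8% were already open. At 500 bp or more the share was 95.8%, and only 40 of 957 such regions were new. At 700 bp or more 4 of 222 were new. Among pNE-only regions the share was 53.1% at 300 bp, 54.4% at 500 bp and 54.5% at 700 bp. Wide new regions were thus frequent in pNE, with 963 of 2113 at 500 bp, and rare in aNE. At equal list size the shares at 500 bp were 90.9% in aNE and 40.9% in pNE. These width limits were chosen after the lists had been seen.

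**Figure D1:**
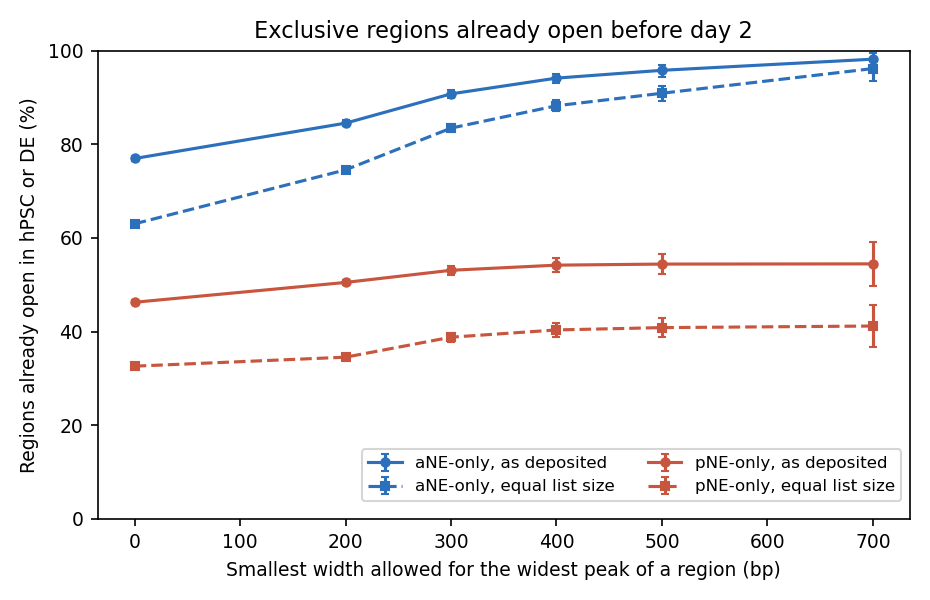
Share of exclusive regions already open in hPSC or DE (y axis, percent) against the smallest width allowed for the widest peak of the region (x axis, bp, 0 meaning all regions), for aNE-only (blue) and pNE-only (red) regions, as deposited (solid) and at equal list size (dashed); bars are exact 95% intervals that cover counting only. The blue curves climb from 77.0% and 63.0% to 98.2% and 96.2%, and the red ones from 46.3% and 32.6% to 54.5% and 41.2%.

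Exclusive regions of every class were mostly far from genes' start sites. Within 1 kb of a start lay 2.12% of already open and 2.66% of new aNE-only regions, and 2.19% and 1.51% of the pNE-only ones, against 12.3% of shared regions. The new pNE-only regions lay farthest out, at a median of 75.5 kb, against 55.0 kb for already open pNE-only, 46.3 kb for new and 42.3 kb for already open aNE-only, and 36.2 kb for shared regions. Inside gene bodies were 46.7% of new pNE-only regions and 53.5% of already open aNE-only regions. A shared region lay within 5 kb of 49.9% of aNE-only and 42.0% of pNE-only regions. A peak in no other list was seen in 2431 aNE-only regions, which is 40.0% of the new ones, and in 3972 pNE-only regions, 12.2% of the new ones.

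Some regions of 1 side stood side by side. A cluster was at least 4 exclusive regions of the same side, each within 20 kb of the next, with none of the other side between. There were 174 aNE-only clusters with 748 regions (2.83% of aNE-only regions) and 2065 pNE-only clusters with 9870 regions (16.3%). Of the aNE-only clusters, 75.9% consisted of already open regions to at least 75%, and 8 were new to that extent. Of the pNE-only clusters, 20.9% were mostly already open and 31.8% mostly new, and 186 held new regions alone. Of the regions in clusters, 77.4% on the aNE side and 45.6% on the pNE side were already open, close to the 77.0% and 46.3% of all exclusive regions. At equal list size there were 618 and 522 clusters. Of the 2065 pNE-only clusters, 520 overlapped one of the 522. All 174 aNE-only clusters overlapped one of the 618. That cut removes no aNE peak, so the aNE-only overlap is no check of those clusters.

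The aNE-only cluster at SNRPN covers 41.6 kb of chromosome 15 (chr15:24967354-25008993) over SNRPN and SNURF. SNRPN is an imprinted gene, expressed from the paternal chromosome, whose transcript hosts a splicing protein and the small RNAs of the Prader-Willi region. Of the 8 regions of the cluster, 5 were open in hPSC, 5 in DE and all 8 in aNE. By construction pNE had none of them open. At day 4, aNE_T had 3 open and aNE_M 1, while aNE_H and the 3 pNE-derived lists had none. Over all 77 regions assigned to SNRPN by nearest start, 20 were aNE-only (6 new) and 1 was pNE-only. The number open was 46 in hPSC, 53 in DE, 37 in aNE, 18 in pNE and 14 to 31 at day 4, where aNE_T was highest. SNRPN had the largest excess among genes ranked by already open aNE-only regions and was also among the 6 ranked by new ones. Its counts were high in the stages before day 2 and in the aNE list and lower in pNE and in most day 4 lists.

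Another cluster, inside PTPN13, was mostly new. PTPN13 is a large tyrosine phosphatase that binds the death receptor FAS. Its cluster (chr4:86657544-86718194, 60.7 kb) held 9 regions, of which hPSC had 0 open, DE 1 and aNE 9. Day 4 lists had 0 to 4 of them open, pNE_H the most. The median width of these aNE peaks was 172 bp, against 309 bp over the aNE list, so they were narrow. LRRC74A, a leucine-rich repeat gene, carried the opposite kind of aNE-only cluster (chr14:76822326-76901532, 79.2 kb). All 9 of its regions were already open, 6 in hPSC and 8 in DE, and at day 4 aNE_T had 8 open, aNE_M 6, aNE_H 2, pNE_T 3, pNE_M 2 and pNE_H 4. The LRRC74A span also held 7 regions open in both aNE and pNE. Peaks covered 4006 bp of it in aNE and 3487 bp in pNE. A cluster at EGR3 and BIN3 on chromosome 8 had 5 of 6 regions open in DE. Its span likewise held 7 shared regions, with 5876 bp under aNE and 5069 bp under pNE peaks. The cluster spans at SNRPN and PTPN13 held 0 shared regions. Smaller, mostly new clusters of 4 regions lay at ZNF703 and at BRAT1 next to LFNG, a modifier of Notch receptors.

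On the pNE side the cluster with the most regions lay in PARD3, which encodes a scaffold of the apical polarity complex of neuroepithelial cells (chr10:34186034-34272832, 86.8 kb). Of its 13 regions, 2 were open in hPSC, 5 in DE, none in aNE and 5 to 10 in the day 4 lists. UNC5C encodes a netrin receptor that guides axons away from the midline. Its cluster (chr4:95409730-95476456, 66.7 kb) held 11 regions, all new: 0 were open in hPSC, in DE and in aNE, and at day 4 aNE_T had 4, aNE_M 8, aNE_H 8, pNE_T 7, pNE_M 6 and pNE_H 8. PTPRD, a synapse-forming receptor phosphatase, had 10 regions (chr9:8614783-8684098), 9 of them new, and 5 to 9 were open at day 4. BMP5, a BMP ligand, had 9 (chr6:55820432-55870224), 7 of them new. All 9 were open in aNE_M and pNE_H, 8 in aNE_H, 7 in pNE_M, 4 in pNE_T and 2 in aNE_T. The new clusters in UNC5C and BMP5 were thus fuller in the midbrain and hindbrain lists of aNE origin than in aNE_T.

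Clusters made of already open regions also occurred on the pNE side, although they were the smaller share. Near CDH10, a neuronal cadherin, 9 of 10 regions (chr5:25406778-25458976) were already open, 7 in hPSC and 6 in DE. At day 4, pNE_H had 8 and pNE_T 7 of them open, against 1 to 3 in the aNE-derived lists. At BCL11A, a zinc-finger repressor of neural and blood cells, 7 of 9 regions were already open. CTIF, a translation factor on chromosome 18, had 7 of 9. Between genes, pNE-only clusters of 12 and 11 regions lay nearest to PLEKHA5 and CHD2, with 4 and 6 already open. Of all genes, 322 had at least 2 pNE-only clusters, and 4 had at least 2 aNE-only ones (SNRPN, GATA3, GATA5 and LY86).

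**Figure D2:**
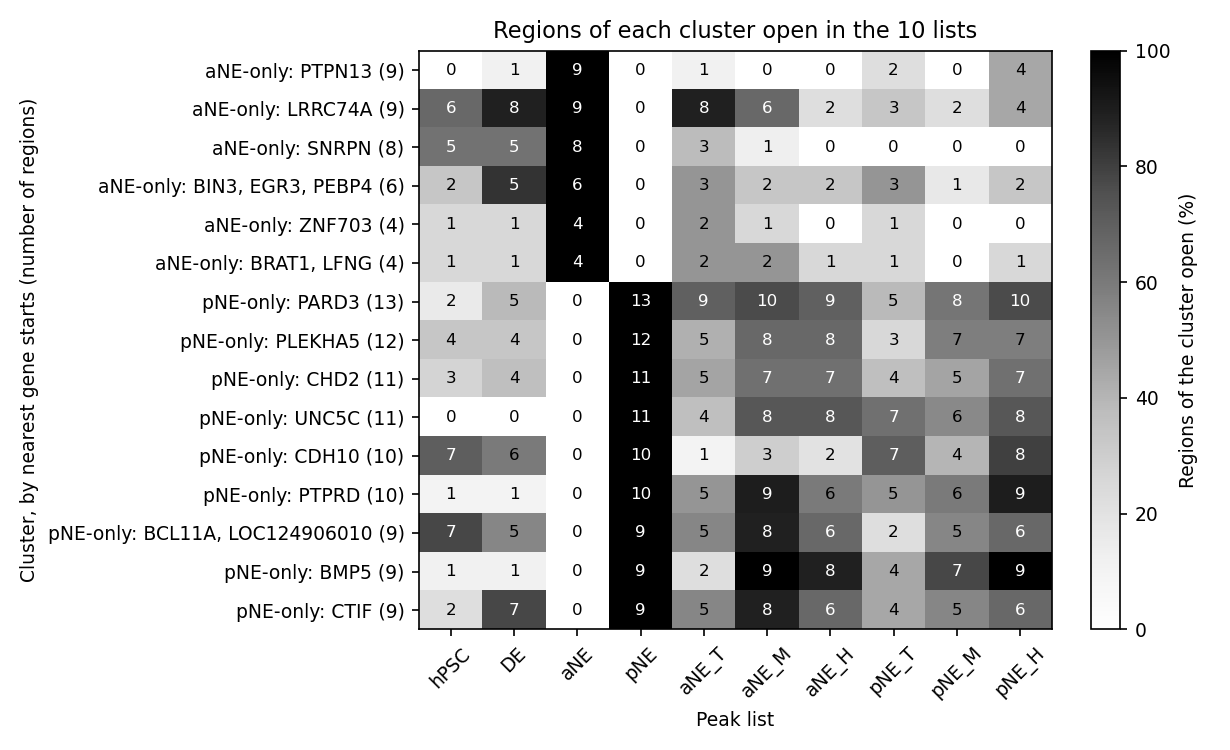
Regions of each named cluster (rows, with the side, the genes with the nearest start and the number of regions) that were open in each of the 10 peak lists (columns); cells give the number and grey the percent of the cluster's regions. The aNE and pNE columns are full or empty by construction, the hPSC and DE columns are dark at LRRC74A, CDH10 and BCL11A and nearly empty at UNC5C and PTPN13, and the SNRPN row is empty in aNE_H and in all pNE-derived lists.

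Genes were called aNE-rich or pNE-rich where 1 side had at least 3 more exclusive regions than the other and at least 2 times as many, with each region given to the nearest gene start. Of 18100 genes with a region, 1.47% were aNE-rich (266) and 20.2% pNE-rich (3665). At equal list size 7.11% were aNE-rich (1277) and 6.73% pNE-rich (1209) of 17952. Since that cut leaves the aNE list unchanged and shortens the pNE list, it can only add to the first and take from the second. The calls depended on a gene's number of regions. As deposited, pNE-rich genes made up 0.849% of genes with 1 to 9 regions, 16.0% with 10 to 29, 54.6% with 30 to 99 and 76.9% with 100 or more. At equal size the shares were 0.0760%, 4.31%, 18.9% and 29.6%. For aNE-rich genes they were 0.279%, 2.55%, 2.75% and 0.103% as deposited, and 0.913%, 9.63%, 16.9% and 5.79% at equal size, so that these calls were fewer again among genes with 100 or more regions. The 11 gene lists below have medians of 13 to 97 regions per gene, against 12 for all genes. Most counts are given with the share of genes in the range that holds the list's median. A called gene can itself lie in a range with more or fewer regions.

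The genes of largest excess on the pNE side, ranked by number of regions, had many regions and include several neuronal surface proteins. ROBO1, a receptor for SLIT guidance cues, had 390 regions, of which 53 were new and 23 already open pNE-only regions, against 5 and 7 on the aNE side. It was open at 96 regions in hPSC, 80 in DE, 70 in aNE, 134 in pNE and 109 to 248 at day 4. GPC5, a heparan sulfate proteoglycan, had 52 new and 25 already open pNE-only regions, against 5 and 5. LRRC4C (netrin-G ligand), CSMD1, GBE1 (glycogen branching enzyme) and ADGRL3 (latrophilin 3) completed the 6 ranked by new regions, with 35 to 42 new pNE-only regions each. These 6 genes had 257 to 398 regions, of which 15.1% to 19.9% were pNE-only, against 60608 of all 476170 regions. As deposited, 76.9% of genes with 100 or more regions were pNE-rich. Ranked by already open regions, the leading genes included GPC5, CDH10, CSMD3, SPRY2 and TCF4. On the aNE side the counts were far smaller. Besides SNRPN and PTPN13, the new class was led by JAKMIP2 (4 new and 4 already open against 0 and 1), ABCA13, CEMIP2 and ADORA2B, an adenosine receptor. The already open class included SNRPN, TOP1 (DNA topoisomerase I, 1 new and 10 already open against 2 and 1), LRRC74A, TPM1 (tropomyosin) and ABHD17C (6 already open against 0).

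Among 18 retinoic acid pathway genes, calls were few on either side. As deposited 4 were pNE-rich and none aNE-rich, with 16.0% pNE-rich among genes of 10 to 29 regions (the list's median was 26). At equal size 2 were pNE-rich, DHRS3 and RDH10, which interconvert retinol and retinal, and 2 aNE-rich, CYP26A1 and CYP26C1, which degrade retinoic acid. DHRS3 had 4 new and 3 already open pNE-only regions and no aNE-only region, and was open at 23 regions in hPSC, 22 in aNE, 29 in pNE and 50 in pNE_H. RDH10 had 5 pNE-only regions and 1 aNE-only region. RARB, the retinoic acid receptor gene that retinoids induce, had 22 new and 8 already open pNE-only regions against 3 and 1. Its open regions numbered 38 in hPSC, 56 in DE, 38 in aNE, 64 in pNE, 48 to 55 in the aNE-derived and 81 to 138 in the pNE-derived lists. At equal size RARB kept 16 pNE-only regions against 9, below the ratio for a call. CYP26A1 had 4 already open aNE-only regions, against 5 on the pNE side as deposited, and 5 against 2 at equal size. CYP26C1 had 1 against 0, and 4 against 0 at equal size, so its call appeared with the cut of the lists. CYP26B1, which encodes another enzyme that degrades retinoic acid, was pNE-rich as deposited, with 12 pNE-only regions against 2, and had 4 against 3 at equal size. The shares of genes with 10 to 29 regions at equal size were 4.31% pNE-rich and 9.63% aNE-rich.

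FGF pathway genes were pNE-rich in 9 of 21 cases as deposited and aNE-rich in none. This is above the 20.2% of all genes and below the 54.6% of genes with 30 to 99 regions (the list's median was 52). At equal size 6 were pNE-rich and 2 aNE-rich, against 18.9% and 16.9% of genes with 30 to 99 regions. The 6 comprise the ligand gene FGF3, the feedback inhibitors SPRY1, SPRY2, SPRED1 and DUSP6, and the ETS factor gene ETV1. Of these, SPRY1 (173), SPRY2 (279), DUSP6 (117) and ETV1 (135) had 100 or more regions. In that range 29.6% of genes were pNE-rich at equal size. SPRED1 had 14 pNE-only regions (6 new) and no aNE-only region. Its open regions numbered 20 in hPSC, 20 in DE, 8 in aNE, 22 in pNE and 15 to 40 at day 4. Open regions at SPRED1 were thus fewer in aNE than in every other list. DUSP6, a phosphatase of ERK, had 8 new and 8 already open pNE-only regions against 0 and 2. SPRY1 had 33 pNE-only regions against 7, and SPRY2 had 56 against 11. Around ETV1 there were 20 against 5. The 2 aNE-rich genes at equal size were FGF2 (3 aNE-only regions against 0) and ETV4 (3 against 0), an ETS factor of the same family as ETV1. As deposited FGF2 and ETV4 each had 3 against 1. Over the whole list there were 233 pNE-only and 80 aNE-only regions, 2.91 per aNE-only region against 2.29 over all regions, and 1.53 against 1.02 at equal size. Without SPRY1 and SPRY2, the 2 members with the most exclusive regions, the ratio was 2.32 as deposited and 1.23 at equal size. The median difference between the sides was 0 regions per gene at equal size, where 18.9% of genes with 30 to 99 regions were pNE-rich.

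WNT targets and inhibitors were pNE-rich in 10 of 22 cases as deposited and in 4 at equal size: LGR5, a receptor for R-spondins, SP5, a target gene of beta-catenin, TNFRSF19 and FRZB, a secreted inhibitor. LGR5 had 10 new and 5 already open pNE-only regions and no aNE-only region, and was open at 10 regions in hPSC, 18 in DE, 9 in aNE, 24 in pNE and 18 to 35 at day 4. SP5 had 10 against 0. FRZB had 8 against 1. DKK1, a WNT receptor antagonist of the anterior embryo, was the aNE-rich gene at equal size, with 6 aNE-only regions against 3. As deposited it had 5 against 5. Of genes with 30 to 99 regions, 16.9% were aNE-rich at equal size. Midbrain-hindbrain boundary genes were pNE-rich in 6 of 11 cases, and in 2 at equal size, EN2 and SP5, with no aNE-rich gene. These counts stood near the shares of genes with 30 to 99 regions, 54.6% pNE-rich as deposited and 18.9% at equal size, as did those of the WNT list at equal size, while its deposited count was below them (medians 69 and 54.5 regions). EN2, which patterns the midbrain and cerebellum, had 5 pNE-only regions against 0.

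Of 21 forebrain and eye field genes, 10 were pNE-rich and 1 aNE-rich as deposited, and 5 and 1 at equal size. Among genes with 30 to 99 regions (the list's median was 46) the shares were 54.6% and 2.75% as deposited and 18.9% and 16.9% at equal size. More aNE-only than pNE-only regions lay at 3 of the 21 genes as deposited and at 11 at equal size, where the median difference was 1 region towards aNE. OTX1 had 10 pNE-only regions against 2, LHX9 6 against 0, VAX1 4 against 0 and SHISA2, an inhibitor of WNT and FGF receptors, 12 against 3. DMBX1, a homeobox gene of the diencephalon and midbrain, was the aNE-rich member, with 3 already open regions against 0. OTX2, which specifies the anterior brain, had 7 already open aNE-only regions, and 3 new and 7 already open pNE-only regions. At equal size OTX2 had 11 aNE-only against 6. SIX3 had 2 against 4, and HESX1 and RAX had 1 and 2 aNE-only regions against 0. Promoters did not separate the sides: of the 16 list genes with a promoter window, 15 had one open in aNE and 15 in pNE, and 14 in hPSC.

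Hindbrain and posterior genes were pNE-rich in 13 of 26 cases and in none aNE-rich as deposited. At equal size 2 were pNE-rich, IRX2 and NR2F1, and 1 was aNE-rich, HOXB1 (3 aNE-only regions against 0, and 2 against 1 as deposited). The pNE-rich counts were below the shares of genes with 30 to 99 regions, 54.6% and 18.9% (the list's median was 34.5). The aNE-rich shares of that range were 2.75% as deposited and 16.9% at equal size. NR2F1 (COUP-TFI) had 27 new and 10 already open pNE-only regions against 4 and 3. It was open at 59 regions in hPSC, 58 in DE, 55 in aNE, 85 in pNE, 77 to 85 in the aNE-derived lists and 102 to 178 in the pNE-derived ones. NR2F2 had 37 new and 19 already open pNE-only regions against 5 and 9, and 5 pNE-only clusters. MEIS1 had 18 pNE-only regions against 5. The list as a whole had 3.15 pNE-only regions per aNE-only region, and 1.36 at equal size, both above the ratio of all regions, and 2.78 and 1.19 without NR2F1 and NR2F2, its 2 members with the most exclusive regions. Of the 16 members with a promoter window, 12 had one open in aNE and 13 in pNE.

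Genes shared by all neural progenitors were pNE-rich in 9 of 15 cases and in 3 at equal size (SOX1, POU3F3 and ZIC1). The list's median was 97 regions, and of genes with 30 to 99 regions 54.6% and 18.9% were pNE-rich. Several members, among them SOX11 (263), CDH2 (253) and SOX2 (198), had 100 or more regions. Of all genes in that range, 76.9% and 29.6% were pNE-rich. SOX1, an early neural plate factor, had 4 new and 14 already open pNE-only regions against 0 and 3. ZIC1 had 17 pNE-only regions against 1. SOX2, a factor of stem and neural progenitor cells, had 22 against 13. SOX21 was aNE-rich at equal size (10 against 4), and had 8 against 8 as deposited. Of genes with 30 to 99 regions, 16.9% were aNE-rich at equal size. All 13 members with a promoter window had it open in both groups and in hPSC. In aNE and in pNE, so had all 11 pluripotency, 8 mesendoderm and 6 neuron genes with a window. Of 11 surface ectoderm and neural crest genes, 8 had it open in aNE and 9 in pNE. Open promoters thus did not separate neural progenitor genes from the pluripotency, mesendoderm and neuron lists.

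Markers of other cell types were measured beside these. In the surface ectoderm and neural crest list, 5 of 19 genes were aNE-rich at equal size, against 7.11% of all genes and 16.9% of genes with 30 to 99 regions. They were the transcription factor genes GATA2, GATA3 and GRHL2 and the epithelial genes KRT18 (a keratin) and CDH1 (E-cadherin). As deposited, GATA2 was the 1 aNE-rich gene, and 6 were pNE-rich (TFAP2A, TFAP2B, TP63, GRHL3, PAX7 and SNAI2), against 54.6% of genes with 30 to 99 regions. More aNE-only than pNE-only regions lay at 7 of the 19 genes as deposited and at 15 at equal size. GATA3, a regulator of non-neural ectoderm, had 8 new and 18 already open aNE-only regions against 12 and 13, and 32 against 16 at equal size. It had 73 regions open in hPSC, 89 in DE, 72 in aNE, 71 in pNE and 64 to 111 at day 4. GATA2 had 4 against 1, GRHL2 9 against 7, and 11 against 5 at equal size. The list had 1.48 pNE-only regions per aNE-only region, the lowest of the 11 lists, and 0.728 at equal size, also the lowest. Without TFAP2A and GATA3, the 2 members with the most exclusive regions, the ratios were 1.58 and 0.792, and the mesendoderm and neuron lists, each without 2 members likewise, had lower ones (1.35 and 0.628, and 1.40 and 0.563). Of its aNE-only regions 81.5% were already open, against 77.0% of all aNE-only regions. SNAI2, a neural crest factor, was the 1 pNE-rich gene of the list at equal size (8 against 1). What these counts say about cells of other types in the aNE cultures was not tested.

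Mesendoderm genes were pNE-rich in 4 of 12 cases as deposited, below the 54.6% of genes with 30 to 99 regions (median 56). At equal size 1 was pNE-rich (CXCR4) and 3 were aNE-rich, against 18.9% and 16.9% of genes in that range. The 3 were FOXA2 (7 against 3), GATA4 (9 against 4) and GSC (9 against 3), a homeobox gene of the organizer. As deposited they had 6 against 7, 7 against 6 and 8 against 8, so these calls appeared with the cut of the lists. Pluripotency genes were pNE-rich in 5 of 17 cases and aNE-rich in 1, LEFTY2, an inhibitor of Nodal with 3 aNE-only regions against 0. As deposited, 16.0% of genes with 10 to 29 regions were pNE-rich and 2.55% aNE-rich. At equal size 2 were aNE-rich (PRDM14 and LEFTY2) and 2 pNE-rich (DPPA4 and ZFP42), against 9.63% and 4.31% of genes with 10 to 29 regions (median 13). DPPA4 (106 regions) and ZFP42 (85) lie in ranges where 29.6% and 18.9% of genes were pNE-rich at equal size. PRDM14 (32) lies in a range where 16.9% were aNE-rich. DPPA4 had 14 new and 9 already open pNE-only regions against 1 and 1. POU5F1 (OCT4) was open at 7 of its 7 regions in hPSC, 6 in DE, 3 in aNE, 2 in pNE and 1 to 3 at day 4. At NANOG the numbers were 9, 5, 5 and 5 of 13, with no exclusive region. Neuronal genes were pNE-rich in 3 of 9 cases, and at equal size 2 were aNE-rich (NEUROD4 and ELAVL3) and 1 pNE-rich (NEUROD1), on a median of 23 regions and with the same shares of genes with 10 to 29 regions. As deposited NEUROD4 had 3 aNE-only regions against 2 and ELAVL3 had 2 against 2.

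**Figure D3:**
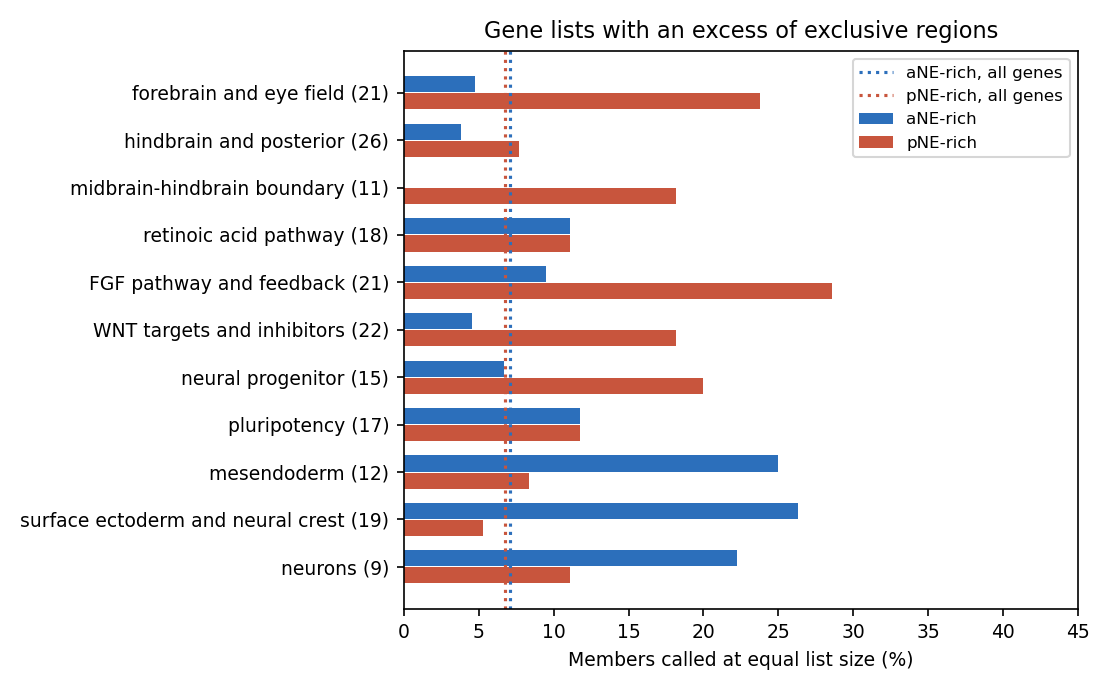
Share of the genes of each list (rows, with the number of genes that had a region) called aNE-rich (blue) or pNE-rich (red) at equal list size; dotted lines mark the shares of all genes, 7.11% and 6.73%. The red bar is highest for FGF pathway genes (6 of 21), and the blue bar for surface ectoderm and neural crest genes (5 of 19).

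The exclusive regions were then followed to day 4. Already open aNE-only regions were most often open in aNE_T, at 54.6%, then in pNE_H (35.1%), aNE_M (34.6%), pNE_T (27.2%), aNE_H (21.6%) and pNE_M (19.7%). Only in aNE_T did the share exceed that of all merged regions (38.1%). New aNE-only regions were open in 31.8% of cases in aNE_T and 15.1% in aNE_H, below the share of all regions in each of the 6 lists. Of these new regions 40.0% were in no day 4 list. On the pNE side the new regions were open in 58.8% of cases in aNE_M, 56.7% in aNE_H and 68.8% in pNE_H, against 41.8%, 38.9% and 61.0% of all regions. In pNE_M the share was 43.7%, in pNE_T 37.7% and in aNE_T 27.8%. Regions that were exclusive to pNE at day 2 were therefore open more often in aNE_M and aNE_H than in pNE_T and pNE_M. Of the new pNE-only regions 12.2% were in no day 4 list.

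The place of pNE_H, the longest list, changed at equal list size. New pNE-only regions were then open in 54.5% of cases in aNE_M and 57.7% in aNE_H, against 47.1% in pNE_H, 40.6% in pNE_M, 34.5% in pNE_T and 28.6% in aNE_T, with 43.7% to 45.4% of all regions open in the 6 lists. Already open aNE-only regions stood at 51.1% in aNE_T and between 17.0% and 28.8% in the other 5. Already open aNE-only regions were open in 35.1% of cases in pNE_H as deposited, behind aNE_T alone, and in 17.0%, the lowest share, after the cut of its 302355 peaks. In both settings new pNE-only regions were open more often in aNE_M and aNE_H than in pNE_T and pNE_M. The narrowest peak was 122 to 126 bp in aNE, pNE and the 3 aNE-derived lists and 109 to 115 bp in hPSC, DE and the 3 pNE-derived lists. The day 2 lists therefore share this property with the aNE-derived lists and not with the pNE-derived ones, and its part in the day 4 shares was not tested.

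**Figure D4:**
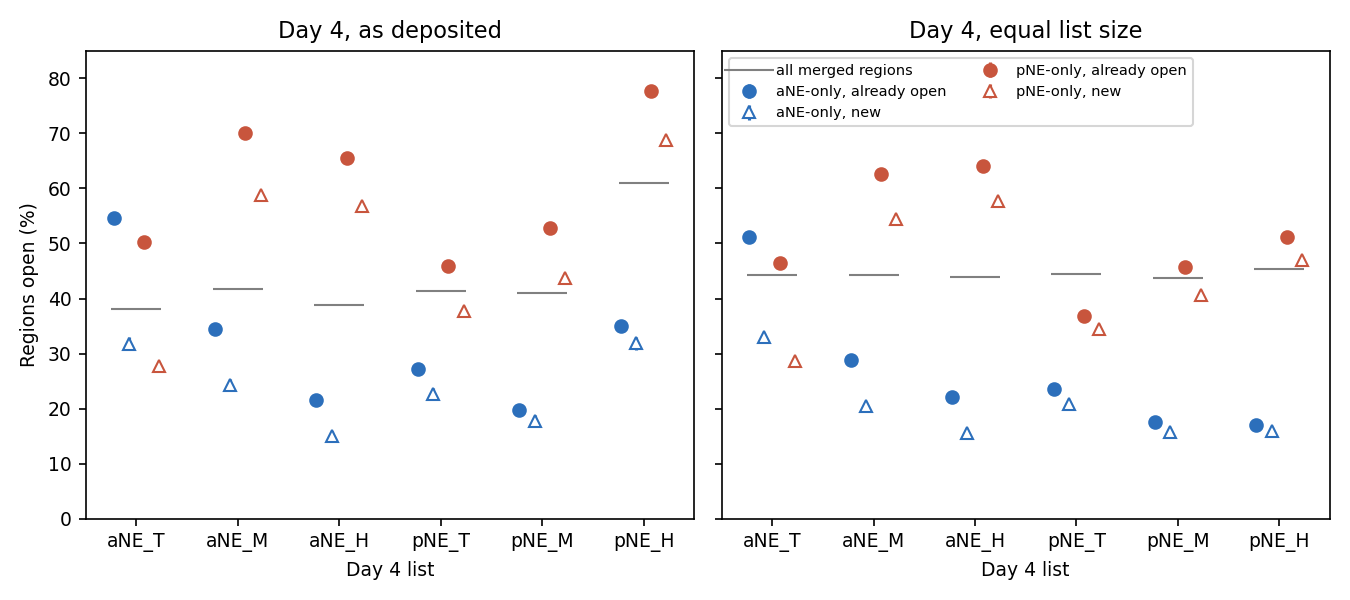
Percent of the 4 classes of exclusive regions (blue aNE-only, red pNE-only; filled already open, hollow new) open in each day 4 list, as deposited (left) and at equal list size (right); grey dashes give the share of all merged regions, and exact 95% intervals are smaller than most symbols. The red symbols stand above the grey dash in aNE_M and aNE_H in both panels, and the blue filled symbol stands above it in aNE_T alone.

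The balance of the 2 sides varied by chromosome. There were 1.51 pNE-only regions per aNE-only region on chromosome 19 and 1.58 on chromosome 17, and 3.07 on chromosome 4 and 3.11 on chromosome 13. At equal list size the ratio ran from 0.652 on chromosome 19 to 1.34 on chromosome 13. Across the 22 chromosomes the ratio was lower where protein-coding genes were denser, with Pearson r = -0.713 and Spearman rho = -0.849, and r = -0.731 and rho = -0.843 at equal size. These coefficients describe 22 points that share the same lists.

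**Figure D5:**
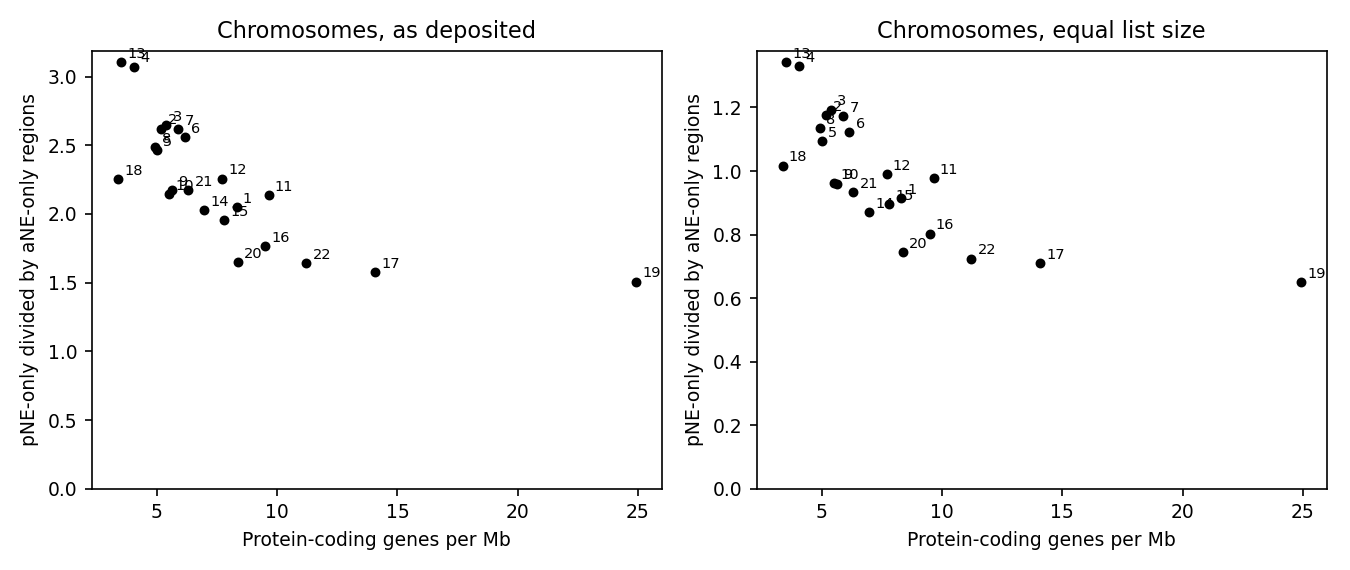
Number of pNE-only regions divided by aNE-only regions (y axis) against protein-coding genes per Mb (x axis) for chromosomes 1 to 22 (numbers beside the points), as deposited (left) and at equal list size (right). Gene-poor chromosomes 4 and 13 have the highest ratios in both panels and gene-dense chromosome 19 the lowest.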

How the data were processed

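Omni-ATAC libraries of H1 cells (30 libraries, 10 groups of 3) were aligned with Bowtie2 to hg38, and peaks were called with MACS2, per the submitters' processing notes, which also name bedtools, featureCounts, edgeR and deepTools without saying for which step. The authors deposited 1 list of peak positions per group, with start and end and no score. How the 3 libraries were combined and the caller's threshold are not given in the sources used here. A looser threshold or deeper sequencing in 1 group would lengthen its list and add exclusive regions.

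Peaks on chromosomes 1 to 22 were merged across the 10 lists at an overlap of 1 bp. Regions were given to the nearest start of 19126 protein-coding genes (RefSeq, GRCh38.p14). For genes without a start site in the promoter table both ends were used. Python 3.11.15, numpy 2.4.6, pandas 2.3.3, scipy 1.17.1 and matplotlib 3.10.9 were used. The code was tested on simulated lists with known exclusive regions and clusters.

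The gene lists (192 genes, 188 matched on these chromosomes) and the groups compared were chosen with earlier results of these data known. Named genes were the members called rich plus up to 4 further members per list, the 6 genes of largest excess in each of the 4 classes that were called both as deposited and at equal list size, and list genes with an exclusive promoter peak. Named clusters were the 3 per side with the most regions, among all and among those at least 75% new or already open, that overlapped a cluster at equal list size. A few further list members, chosen for their known roles or after their values were seen, are named beside them. Some genes that the rule selects are not reported here. No test was made, since each group has 1 list and no replicate values.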

Additional observations from a re-analysis of the deposited data

Results flagged for a closer look

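Peaks outside chromosomes 1 to 22 were left out of every comparison: 15693 of the aNE list and 18201 of the pNE list, 8.83% and 8.36% of the peaks.

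The response to the day 4 medium had opposite signs by origin for aNE-only regions. For already open ones, the share open in hindbrain minus telencephalon medium was -33.0 percentage points in aNE-derived and 7.81 in pNE-derived lists, a difference of 40.8 points. For new ones it was -16.7 and 9.25, a difference of 26.0 points. At equal list size the share was lower in hindbrain medium for both origins (-29.0 and -6.46, and -17.5 and -4.77), and the differences were 22.5 and 12.7 points. These differences were not tested, since each condition has 1 list, and the pNE_H list is the longest of the 10.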

How the results depend on the processing

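The already open share was higher for aNE-only than for pNE-only regions under all 7 alternatives tried. It was 63.0% against 32.6% at equal list size, 72.1% against 41.0% with peaks required to cover at least 50% of a region, 79.2% against 47.9% with 500 bp windows, 76.3% against 45.8% with aNE and pNE peaks alone merged, 72.9% against 41.1% with peaks of at least 200 bp, and 80.4% against 49.1% with the pNE list alone cut to the aNE length, which was chosen after seeing the data. Counts of genes and clusters depended on list length. At equal list size the pNE-only regions were 37791, aNE-rich genes 1277, pNE-rich genes 1209, aNE-only clusters 618 and pNE-only clusters 522. With the pNE list alone cut these were 37771, 1275, 1209, 617 and 521. So the excess of pNE-only regions, pNE-rich genes and pNE-only clusters was present as deposited and absent for genes and clusters at equal length. Lists of the same length are bound to have close numbers of exclusive regions, so equal length is no check of that excess. Regions within 50 kb of a gene gave 703 aNE-rich genes. Peak cover of 50% gave 284 aNE-only clusters, peaks of at least 200 bp gave 89 aNE-only and 787 pNE-only clusters, and a gap of 10 kb gave 51 and 699. The other 32 values stayed within a factor of 1.5 of the reported count or within the interval of the reported share. The list ratios without 2 members, given with the gene lists, were also chosen after seeing the data. No paired analysis was possible because each group has a single list. The depth behind the lists is unknown, and how far it set their lengths was not tested.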
